A study of Homo sapiens with 6 samples.

Results

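The genes described here are 33 genes of protein folding and disposal in the endoplasmic reticulum (ER), found by gene symbol among the 61806 genes of the deposited table. They fall into 4 sensors and transcription factors of ER stress, 11 chaperones and co-chaperones, 6 disulfide enzymes, 10 genes of ER-associated degradation (ERAD) and 2 translocon subunits. RNA was measured in 6 libraries of HEK293, an established line of human embryonic kidney origin. The mutant group is 3 libraries of cells into which the variant rs16851030, which lies in the adenosine A1 receptor gene ADORA1, was introduced by CRISPR homology-directed repair. The wild-type group is 3 libraries of HEK293 cells labelled WT. No other treatment separates the groups in the labels. The sources used here do not say whether the edited cells were 1 clone, several or a mixture, nor whether the libraries stem from separate cultures, so p-values measure only the spread between these libraries. The RNA comes from bulk cells, in which fewer cells of a type and less RNA per cell cannot be told apart.

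Proteins bound for the cell surface, the secretory route or the lumen of the ER enter it through the SEC61 channel. Inside, they are folded by HSP70 and HSP90 family chaperones, by the lectins calnexin and calreticulin, and by protein disulfide isomerases that the ERO1 oxidases recharge. Chains that do not fold are trimmed by mannosidase-like EDEM proteins, recognised by lectins such as OS9, and passed out of the ER by a membrane complex around SEL1L and the ubiquitin ligase SYVN1. When unfolded chains accumulate, the sensors IRE1 (gene ERN1), PERK (EIF2AK3) and ATF6 start the unfolded protein response. IRE1 splices XBP1 messenger RNA, ATF6 is cleaved to a transcription factor, and PERK slows translation and favours ATF4. Splicing of XBP1, cleavage of ATF6 and PERK activity are not visible in gene-level counts.

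Many of these genes carry a short promoter element through which ATF6 and XBP1 act, and the sites below are shown because the genes that carry them did not all move alike. The ER stress response element (ERSE) was searched as CCAAT and CCACG with 9 free bases between them, ERSE-II as ATTGG and CCACG with 1 free base between them, the core of the XBP1 element (UPRE core) as TGACGTGG and an ATF4 site as TGATGCAA. Both strands were read over the 250 bases before each RefSeq start site (GRCh38.p14), where 30 of the 33 genes had at least 1 window. ERSE was in the windows of 8 of these 30 genes (26.7%) against 0.0916% of the 27305 genes with a window. ERSE-II was in 3 (10.0%) against 0.0659%, and the UPRE core and the ATF4 site in 1 each (3.33%) against 0.780% and 0.967%. The 27305 genes include these 30, which made up 8 of the 25 genes with an ERSE. The elements were picked as known ones of this pathway, so their shares among the members are no independent result. Among the 11 genes with any of the 4 elements, 7 were higher in the mutant, 2 lower and 2 not past the test, and among the 19 with a window and none of them, 8 were higher, 3 lower and 8 not past it. Of all 12550 tested genes 29.4% were higher and 28.7% lower. The median log2 fold change was 0.14 for the 11 genes with an element and 0.08 for the 19 without. Of the 7 higher genes HSP90B1, HYOU1 and PDIA6 lost their calls in some alternatives, PDIA6 only with no expression filter (adjusted p = 0.0553). A match of letters is a description and not a bound site.

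The printed stretches run 5′ to 3′ on the strand of the gene, with the elements in capitals and 5 bases on either side. HERPUD1 (chr16:56931961-56932040, plus strand) is shown because it had the largest rise, and it was the only member with the ATF4 site, read there on the opposite strand, besides an ERSE-II. HYOU1 (chr11:119057269-119057398, minus strand) holds 2 copies of ERSE-II, the first overlapping the UPRE core. HSPA5 (chr9:125241386-125241414, minus strand), XBP1 (chr22:28800598-28800626, minus strand) and ERO1B (chr1:236282178-236282206, minus strand) each hold 1 ERSE and were higher in the mutant. CALR (chr19:12938379-12938407, plus strand) and CRELD2 (chr22:49918549-49918577, plus strand) hold 1 ERSE as well and were lower.
HERPUD1: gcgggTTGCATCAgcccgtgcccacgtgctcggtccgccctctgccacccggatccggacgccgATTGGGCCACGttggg
HYOU1: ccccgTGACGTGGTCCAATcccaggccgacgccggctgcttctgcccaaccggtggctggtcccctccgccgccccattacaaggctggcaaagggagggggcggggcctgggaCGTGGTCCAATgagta
HSPA5: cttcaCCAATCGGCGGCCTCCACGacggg
XBP1: gctggCCAATCGCGGAGGGCCACGaccgt
ERO1B: gcccgCGTGGTCCCGCCTCATTGGccgcc
CALR: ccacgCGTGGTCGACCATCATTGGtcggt
CRELD2: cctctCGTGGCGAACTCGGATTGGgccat

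**Figure D1:**
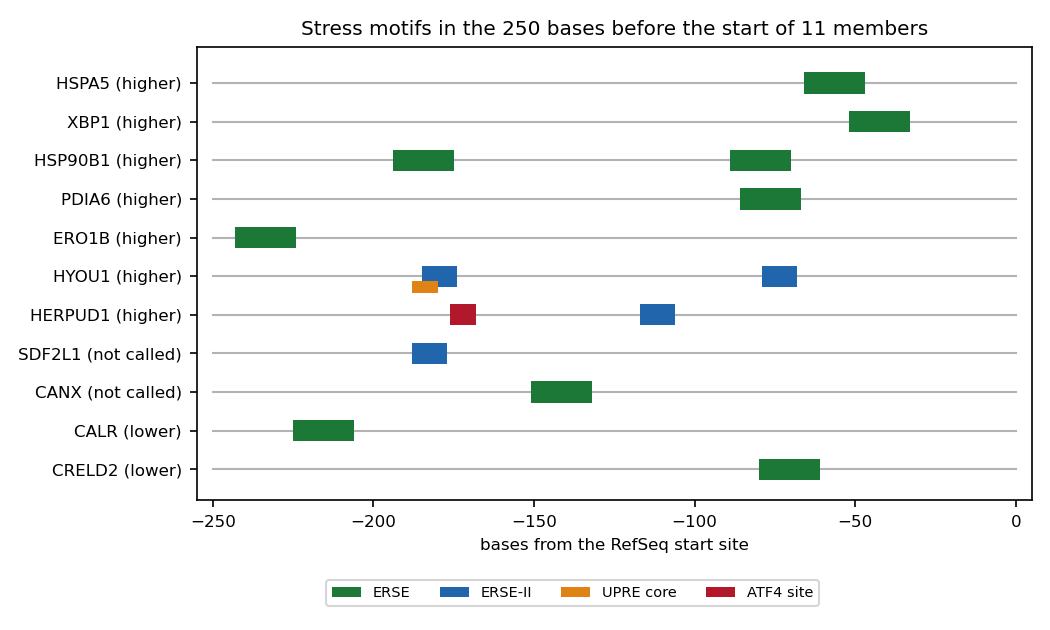
Position of each ERSE, ERSE-II, UPRE core and ATF4 site in bases before the RefSeq start site (x axis) for the 11 members that hold one, with the call in the mutant in brackets. The ERSE of XBP1 (higher) begins 52 bases before its start and that of CRELD2 (lower) 80 bases before its start.

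Counts assigned to genes totalled 16013460 to 20349609 per library, and the common biological coefficient of variation was 0.0478. Levels are FPKM, the authors' deposited scaling of counts to exon length and library total. Calls rest on edgeR's quasi-likelihood test of the deposited counts, fitted over the 12550 genes whose mean FPKM was 1 or more and Benjamini-Hochberg adjusted over all of them, with 0.05 as the threshold. A positive log2 fold change means more RNA in the mutant, and its standard error (SE) comes from that fit. Of all tested genes 58.0% were called, 29.4% as higher and 28.7% as lower in the mutant, and of the called genes 50.6% were higher. With FPKM rescaled to a common total (TPM, in limma), 62.4% of the called genes were higher. Of 7 markers picked for kidney or HEK293 cells, not all of them epithelial, only PAX8 was listed at 0 in every library. VIM, KRT18 and CDH2 were the most abundant. Of 7 markers of plasma cells and pancreas, tissues rich in ER, 5 were listed at 0 throughout (IGKC, PRSS1, CPA1, CELA3A and INS), and the list summed to 0.08 FPKM at the most in a mutant or a wild-type library. The kidney and HEK293 list summed to 99.4 to 102 FPKM in mutant and 157 to 181 in wild-type libraries, mostly from VIM. VIM, KRT18 and CDH2 were called lower in the mutant. The scarcer PAX2, LHX1 and KRT8 had higher means in the mutant (0.233, 1.2 and 1.12 FPKM) than in the wild type (0.0967, 0.89 and 0.503). Of these, LHX1 did not pass the test, and PAX2 and KRT8 were under a mean FPKM of 1. Fitted by edgeR without the expression filter, PAX2 had a log2 fold change of 1.17 (adjusted p = 0.00451) and KRT8 of 1.07 (adjusted p = 1.49e-09). A list of 10 blood, connective tissue, vessel, skin and liver markers, with PTPRC, HBB and CD3E listed at 0, summed to 7.15 to 8.50 and 3.97 to 4.27 FPKM. HBA1 and COL1A1, its 2 genes with a mean FPKM of 1 or more, were called higher in the mutant. The part of these marker shifts in the results was not tested.

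The ER folding and degradation genes differed little between mutant and wild type, apart from HERPUD1. Of the 32 members that reached the expression minimum, 21 were called (65.6%, against 58.0% of all tested genes), 15 as higher (46.9%, against 29.4%) and 6 as lower (18.8%, against 28.7%). The share called is near the background. HERPUD1 was the only member that differed by at least 2-fold, and 19 of the 21 called members differed by less than 1.5-fold. The median log2 fold change was 0.10 (0.0575 without mutant replicate 1), beside a median of -0.00070 over all tested genes, and the median absolute log2 fold change was 0.18, beside 0.25. The 3 mutant values lay entirely above the 3 wild-type values for 17 members and entirely below for 5, and for 10 the groups overlapped. Over all tested genes the groups did not overlap for 62.9% (34.8% above and 28.1% below). The remaining member, DERL3, was under the minimum, with 33 to 40 counts in each library, and without the expression filter its log2 fold change was -0.02 (SE 0.26, adjusted p = 0.984). DERL3 shares 3507 bases with SMARCB1 on the other strand, which averaged 3510 counts per library against 34.5, so its value is uncertain.

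**Figure D2:**
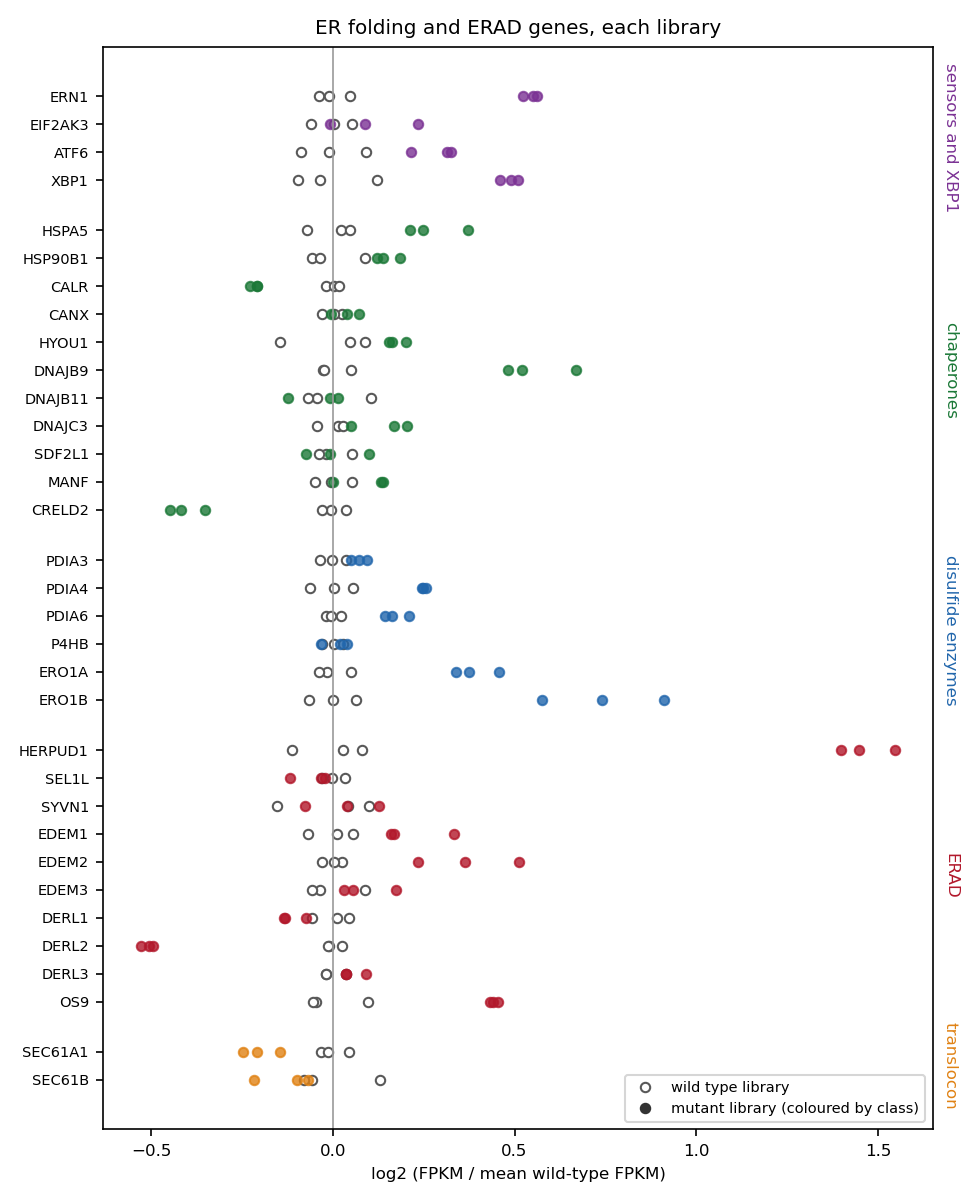
Each row is 1 member and each point 1 library, plotted as log2 of its FPKM over the mean wild-type FPKM. Open points are wild-type libraries and coloured points mutant libraries. HERPUD1 stands apart on the right, and CALR, CRELD2, DERL2 and SEC61A1 are the members whose 3 mutant points lie clearly to the left.

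Of the 4 sensors and factors, 3 were higher in the mutant and none lower, in each case by less than 1.5-fold. ERN1 encodes IRE1, the kinase and RNase that splices XBP1 (chromosome 17, 64039080 to 64130819). It was low, with 1.49, 1.46 and 1.5 FPKM in the mutant (replicates 1, 2 and 3, the order kept below) and 0.99, 1.01 and 1.05 FPKM in the wild type. The mutant libraries were all above the wild-type libraries, and ERN1 rose by 0.51 on the log2 scale (SE 0.08, adjusted p = 1.73e-05). That call was lost in limma after quantile normalization (0.16, adjusted p = 0.107). XBP1, the transcription factor made from the spliced message (chromosome 22, 28794555 to 28800597), stood at 72.75, 71.72 and 70.30 FPKM in the mutant and 55.58, 49.87 and 47.87 in the wild type. No mutant library came near the highest wild-type library, and the log2 fold change was 0.45 (SE 0.05, adjusted p = 4.65e-07). ATF6, the membrane-bound transcription factor (chromosome 1, 161766298 to 161977574), had 7.82, 7.88 and 7.30 FPKM in the mutant and 6.70, 5.92 and 6.24 in the wild type. Its groups did not overlap either, and it rose by 0.25 on the log2 scale (SE 0.05, adjusted p = 4.66e-04). EIF2AK3 encodes PERK, the kinase that slows translation (chromosome 2, 88556741 to 88691518). At 1.35, 1.14 and 1.22 FPKM in the mutant and 1.10, 1.19 and 1.15 in the wild type, its groups overlapped. The log2 fold change was 0.08, with a 95% interval of -0.09 to 0.26 (adjusted p = 0.415).

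Summed over the class, the sensors gave 80.32 to 83.41 FPKM in mutant and 56.31 to 64.37 FPKM in wild-type libraries, most of it from XBP1. Without XBP1 the sums were 10.02 to 10.66 and 8.12 to 8.79 FPKM. The ratio of XBP1 to ATF6 within a library averaged 9.34 ± 0.267 for mutant and 8.13 ± 0.403 for wild-type libraries (SD, n = 3).

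The chaperones went both ways: 4 of 11 were higher (36.4%, against 29.4% of all tested genes), 2 lower (18.2%, against 28.7%) and 5 not past the test. The share called, 54.5%, was near the 58.0% of all tested genes. The median log2 fold change of the class was 0.06. HSPA5 encodes BiP, the ER HSP70 that also restrains the sensors (chromosome 9, 125234853 to 125241382). Its FPKM was 170.84, 156.89 and 152.88 in the mutant and 133.94, 136.33 and 125.67 in the wild type. Every mutant library was above every wild-type library, and the log2 fold change was 0.25 (SE 0.05, adjusted p = 1.5e-04). DNAJB9, an HSP40 partner of BiP that holds IRE1 inactive (chromosome 7, 108569867 to 108574850), had the largest rise of the class. It had 11.48, 10.09 and 10.36 FPKM in the mutant and 7.09, 7.47 and 7.10 in the wild type, or 0.53 on the log2 scale (SE 0.08, adjusted p = 2.91e-05). Its mutant libraries were again all higher. HSP90B1 (GRP94, the ER HSP90) and HYOU1 (an HSP110 relative that recharges BiP) rose by 0.12 and 0.14. Both calls were marginal. HSP90B1 lost its call without mutant replicate 1 (adjusted p = 0.105) or 3 (0.0669) and without wild-type replicate 1 (0.106) or 3 (0.117). HYOU1 lost it without mutant replicate 2 (0.0545) or 3 (0.0900) and without wild-type replicate 3 (0.189). The class then counted 2 higher without mutant replicate 3 or wild-type replicate 3.

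CALR and CRELD2 were the 2 chaperone genes that fell. CALR encodes calreticulin, the soluble lectin chaperone and calcium store of the ER lumen (chromosome 19, 12938578 to 12944489). Its FPKM was the highest of any member, although in counts, which are not divided by exon length, CANX was above it in every library. CALR stood at 322.73, 322.63 and 318.52 FPKM in the mutant and 367.83, 373.61 and 377.23 in the wild type. The groups were far apart relative to their spread, and the log2 fold change was -0.25 (SE 0.04, adjusted p = 1.21e-05). CRELD2, an ER stress-inducible protein with disulfide isomerase activity (chromosome 22, 49918167 to 49927540), stood at 9.61, 10.07 and 9.42 FPKM in the mutant and 13.16, 12.80 and 12.57 in the wild type. Its mutant libraries were all lower, and it fell by 0.44 on the log2 scale (SE 0.06, adjusted p = 2.94e-06). At its 5′ end 272 bases are shared with ALG12 on the other strand, which averaged 401 counts per library against 1030 for CRELD2.

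Calnexin (CANX), the membrane-bound lectin that works beside calreticulin, did not pass the test, with a log2 fold change of 0.0033 and a 95% interval of -0.07 to 0.08. The ratio of CALR to CANX within a library was 2.76, 2.90 and 2.78 in the mutant and 3.24, 3.35 and 3.45 in the wild type. The ratio of CALR to HSPA5 was 2.01 ± 0.105 in the mutant and 2.83 ± 0.149 in the wild type (SD, n = 3), and neither ratio overlapped between groups. Because the FPKM of CALR is so high, the summed FPKM of the 11 chaperones did not separate the groups. It was 861.48 to 899.02 in the mutant and 862.19 to 889.14 in the wild type. Without CALR the sums were 542.96 to 576.29 and 484.96 to 515.53 FPKM. The other chaperones that did not pass were the HSP40 co-chaperones DNAJB11 (-0.07) and DNAJC3 (0.11), SDF2L1 (-0.02), which binds BiP with DNAJB11, and MANF (0.06), a stress-induced protein that is also secreted. Their adjusted p ran from 0.0692 for DNAJC3 to 0.791 for SDF2L1. DNAJB11 shares 3141 bases with TBCCD1 on the other strand, which averaged 427 counts per library against 1170 for DNAJB11. DNAJC3 was called as higher in 7 of 17 alternatives, with adjusted p from 0.0137 at a mean FPKM of at least 5 to 0.0439 in limma on log2(FPKM + 0.1), and 0.0272 without mutant replicate 2.

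Of the 6 disulfide enzymes 4 were higher (66.7%, against 29.4% of all tested genes), none lower (against 28.7%) and 2 not past the test. The median log2 fold change of the class was 0.18. The largest rise was that of ERO1B, an oxidase that regenerates protein disulfide isomerases (chromosome 1, 236214681 to 236282019). It had 2.22, 1.98 and 2.50 FPKM in the mutant and 1.27, 1.39 and 1.33 in the wild type. The mutant libraries were all higher, and the log2 fold change was 0.72 (SE 0.09, adjusted p = 1.85e-06). The call was kept in all 16 alternatives that held ERO1B, with log2 fold changes from 0.33 to 0.79. ERO1B shares 7185 bases with GPR137B on the other strand, which averaged 141 counts per library against 482 for ERO1B. ERO1A, the more abundant oxidase, rose by 0.36 (SE 0.05), from 16.7 ± 0.536 to 21.8 ± 0.922 FPKM (SD, n = 3). The isomerases PDIA4 and PDIA6 rose by 0.22 and 0.14, whereas PDIA3, the isomerase that works with the lectins (0.04), and P4HB, the founding isomerase (-0.02), did not pass. The 95% intervals of these latter log2 fold changes were -0.04 to 0.12 and -0.10 to 0.06. PDIA3 was called as higher in 3 of 17 alternatives, after quantile normalization (adjusted p = 0.0147), at a mean FPKM of at least 5 (0.0493) and on TPM (0.0471). The summed level of the class was 333.81 to 341.53 FPKM in the mutant and 293.56 to 300.28 in the wild type. PDIA3 has a pseudogene copy, PDIA3P1, with a mean of 301 counts per library against 6810 for PDIA3, and reads may have been split between them.

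ERAD genes also went both ways. Among 9 tested, 4 were higher (44.4%, against 29.4% of all tested genes), 2 lower (22.2%, against 28.7%) and 3 not past the test (median 0.06). HERPUD1, a membrane protein with a ubiquitin-like domain that organises the SYVN1 complex (chromosome 16, 56932142 to 56944864), had the largest change of any member. Its FPKM was 31.15, 30.09 and 33.33 in the mutant and 11.63, 12.06 and 10.55 in the wild type. The lowest mutant library was far above the highest wild-type library, and the rise was 2.70-fold (log2 fold change 1.43, SE 0.06, adjusted p = 2.16e-12). The partners of HERPUD1 in that complex did not pass: SEL1L changed by -0.09 (95% interval -0.19 to 0.01) and SYVN1 by 0.0020 (-0.16 to 0.16). The ratio of HERPUD1 to SYVN1 was 4.21 ± 0.492 in the mutant libraries and 1.55 ± 0.0680 in the wild type (SD, n = 3). SYVN1 spans part of FAU on its own strand and of MRPL49 on the other, which averaged 3240 and 1780 counts per library against 723 for SYVN1, so its value is uncertain.

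OS9, a lectin that hands misfolded glycoproteins to SEL1L, rose by 0.41 (SE 0.05), from 14.1 ± 0.850 to 19.2 ± 0.153 FPKM (SD, n = 3). EDEM2, which starts mannose trimming, rose by 0.34 (SE 0.08, adjusted p = 0.00199), with the 3 mutant libraries at 14.27, 15.61 and 17.30 FPKM and the wild type at 11.89, 12.34 and 12.17. EDEM1 rose by 0.19, a call lost without mutant replicate 1 (adjusted p = 0.0900) or wild-type replicate 3 (0.0560), and EDEM3 (0.06) did not pass. Summed over the class, ERAD genes gave 115.73 to 120.39 FPKM in the mutant and 87.92 to 92.41 in the wild type, and without HERPUD1 85.64 to 87.47 and 77.37 to 80.61.

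DERL1 and DERL2, derlins of the exit route through the membrane, were the 2 ERAD genes called lower, and the DERL1 call held in 9 of 17 alternatives. DERL2 (chromosome 17, 5471254 to 5486811) had 4.70, 4.81 and 4.77 FPKM in the mutant and 6.72, 6.89 and 6.71 in the wild type. The groups were separated by many times their spread, and DERL2 fell by 0.54 on the log2 scale (SE 0.06, adjusted p = 1.19e-06), the largest fall of any member. DERL1 (chromosome 8, 123013170 to 123042302) had 12.20, 11.69 and 11.72 FPKM in the mutant and 12.34, 13.24 and 12.94 in the wild type. Its highest mutant library was just under its lowest wild-type library. It fell by 0.15 on the log2 scale (adjusted p = 0.0179), a call lost without mutant replicate 2 (adjusted p = 0.0565) or 3 (0.0667) or wild-type replicate 2 (0.0744) and in limma on log2(FPKM + 1) (0.0639). The ratio of DERL1 to DERL2 was 2.49 ± 0.0888 in the mutant and 1.90 ± 0.0513 in the wild type (SD, n = 3). DERL2 shares 527 bases with MIS12 on the other strand, which averaged 1110 counts per library against 648, so the value of DERL2 is uncertain. DERL1 shares 335 bases with TBC1D31 on the other strand, which averaged 958 counts per library against 1510 for DERL1. The sources used here do not say whether counting used strand.

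Both translocon subunits were lower in the mutant, as were 28.7% of all tested genes. SEC61A1, the channel subunit (chromosome 3, 128051641 to 128071705), had 31.85, 30.51 and 29.69 FPKM in the mutant and 36.33, 34.44 and 34.94 in the wild type. The groups did not overlap, and the log2 fold change was -0.23 (SE 0.04, adjusted p = 7.09e-05). SEC61A1 shares 6928 bases with RUVBL1 on the other strand, which averaged 3750 counts per library against 6810. SEC61B, the small beta subunit (chromosome 9, 99222064 to 99230615), had 59.59, 58.37 and 53.72 FPKM in the mutant and 60.03, 59.09 and 68.31 in the wild type. Here the mutant values of replicates 1 and 2 lay close to wild-type replicates 1 and 2, and the groups overlapped. Its log2 fold change of -0.16 (SE 0.06) passed with an adjusted p of 0.0353. Of 17 alternatives 11 lost that call, including the fits that left out mutant replicate 2 (adjusted p = 0.0520), mutant replicate 3 (0.173) or wild-type replicate 3 (0.226).

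Per length of exon, the members covered a wide range, and the order of levels was much the same in both groups. In the wild type CALR led with 373 ± 4.74 FPKM, followed by HSPA5 (132 ± 5.59), CANX (111 ± 2.11), PDIA4 (103 ± 4.18), PDIA6 (93.6 ± 1.33) and HSP90B1 (78.5 ± 4.36; SD, n = 3 for each). Each of these was above the next in every wild-type library. XBP1, P4HB, MANF and HYOU1 followed SEC61B at 49.5 to 51.1 FPKM, and within that group neighbours in the order overlapped. The ERAD genes and co-chaperones mostly lay between 5 and 17 FPKM, and ERO1B, EIF2AK3, ERN1 and DERL3 were the lowest, at 1.33, 1.15, 1.02 and 0.507 FPKM. CALR made up 25.7 to 26.9% of the members' summed FPKM in wild-type and 21.0 to 21.6% in mutant libraries, and HSPA5 8.96 to 9.52% and 10.3 to 11.1%. HERPUD1 moved from the 21st place in the wild type to the 14th in the mutant, and CRELD2 from the 19th to the 24th. FPKM divides by the deposited summed exon length of a gene, which for CANX was 13764 bases and for CALR 2802, so genes with much rarely used exon sequence rank low.

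**Figure D3:**
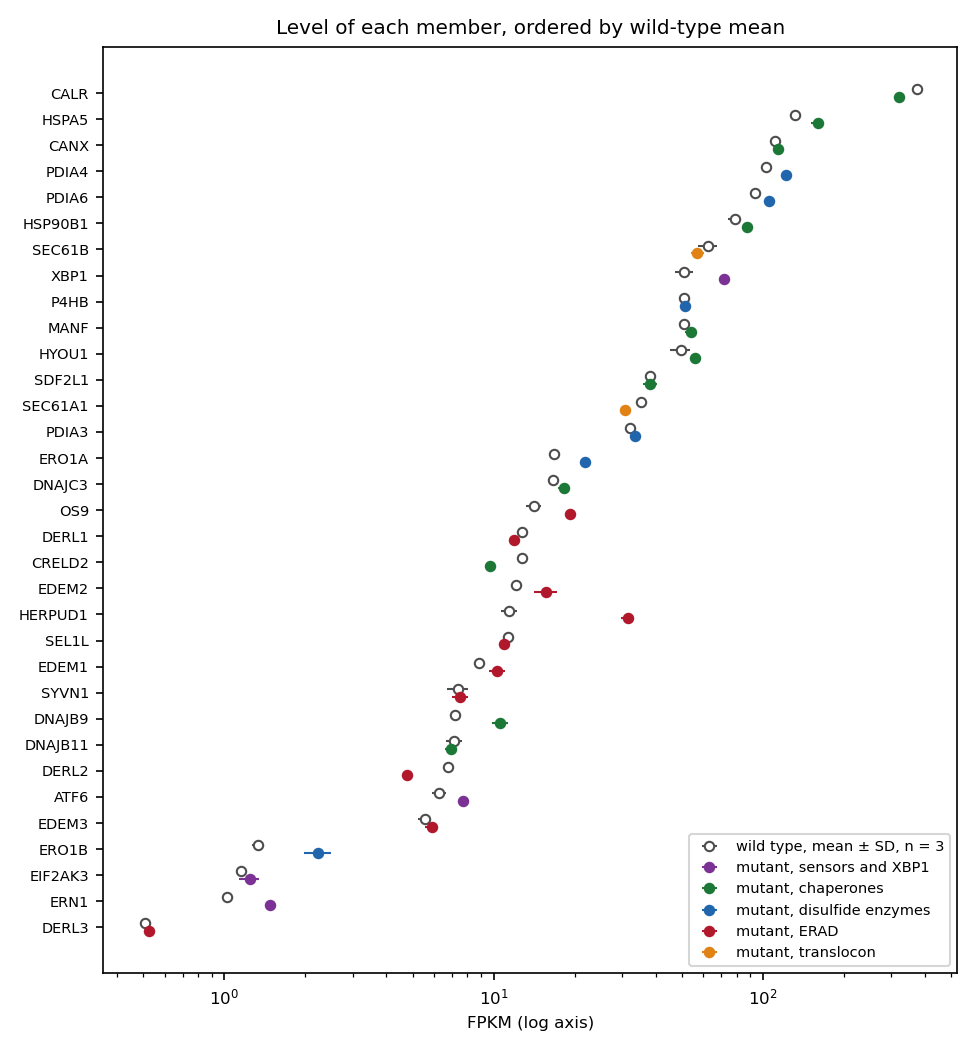
Mean FPKM of each member (log axis) in wild-type libraries (open points) and mutant libraries (coloured by class), with bars of 1 SD (n = 3), ordered by the wild-type mean. CALR is at the top in both groups, and HERPUD1 shows the widest gap, 11.4 against 31.5 FPKM.

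Where the genes lie in the genome went along with some of these differences. The median log2 fold change of all tested genes was 0.29 on chromosome 16 (578 genes), -0.36 on chromosome 10 (492), -0.16 on chromosome 22 (333) and -0.13 on chromosome 20 (329), and between -0.05 and 0.06 on each of the other chromosomes. HERPUD1 lies on chromosome 16, EDEM2 on 20, XBP1, SDF2L1, CRELD2 and DERL3 on 22, and no member on 10. Relative to the median of their chromosomes, HERPUD1 was at 1.14, XBP1 at 0.61, EDEM2 at 0.46 and CRELD2 at -0.28 on the log2 scale. XBP1 and EDEM2 were higher although the medians of their chromosomes were below 0, but the 24 tested genes nearest to EDEM2 had a median of 0.02. Outside chromosomes 10, 16, 20 and 22, 12 of 27 members were higher (44.4%), 5 lower (18.5%) and 10 not past the test, with a median of 0.08. Of all tested genes 29.4% were higher and 28.7% lower.

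The 24 tested genes around each member gave a closer comparison. Over the genome the medians of such neighbourhoods ran from -0.27 at the 5th to 0.23 at the 95th percentile. OS9, on chromosome 12, had a log2 fold change of 0.41 in a neighbourhood with a median of 0.41 (99.3rd percentile). The neighbours of HERPUD1 had a median of 0.44, those of CRELD2 of -0.29, those of DNAJB9 of 0.25 and those of DNAJC3 of 0.29. HSPA5, XBP1, ERN1, PDIA4 and HYOU1, all higher in the mutant, lay among genes with medians from -0.15 to -0.10. Other higher members had neighbours with medians above 0: ERO1A (0.11), PDIA6 (0.09), ERO1B (0.06), EDEM2 (0.02) and ATF6 (0.01). The medians around HSP90B1 (-0.02) and EDEM1 (-0.06), also higher, were a little below 0. The part of chromosome position in these differences was not tested.

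**Figure D4:**
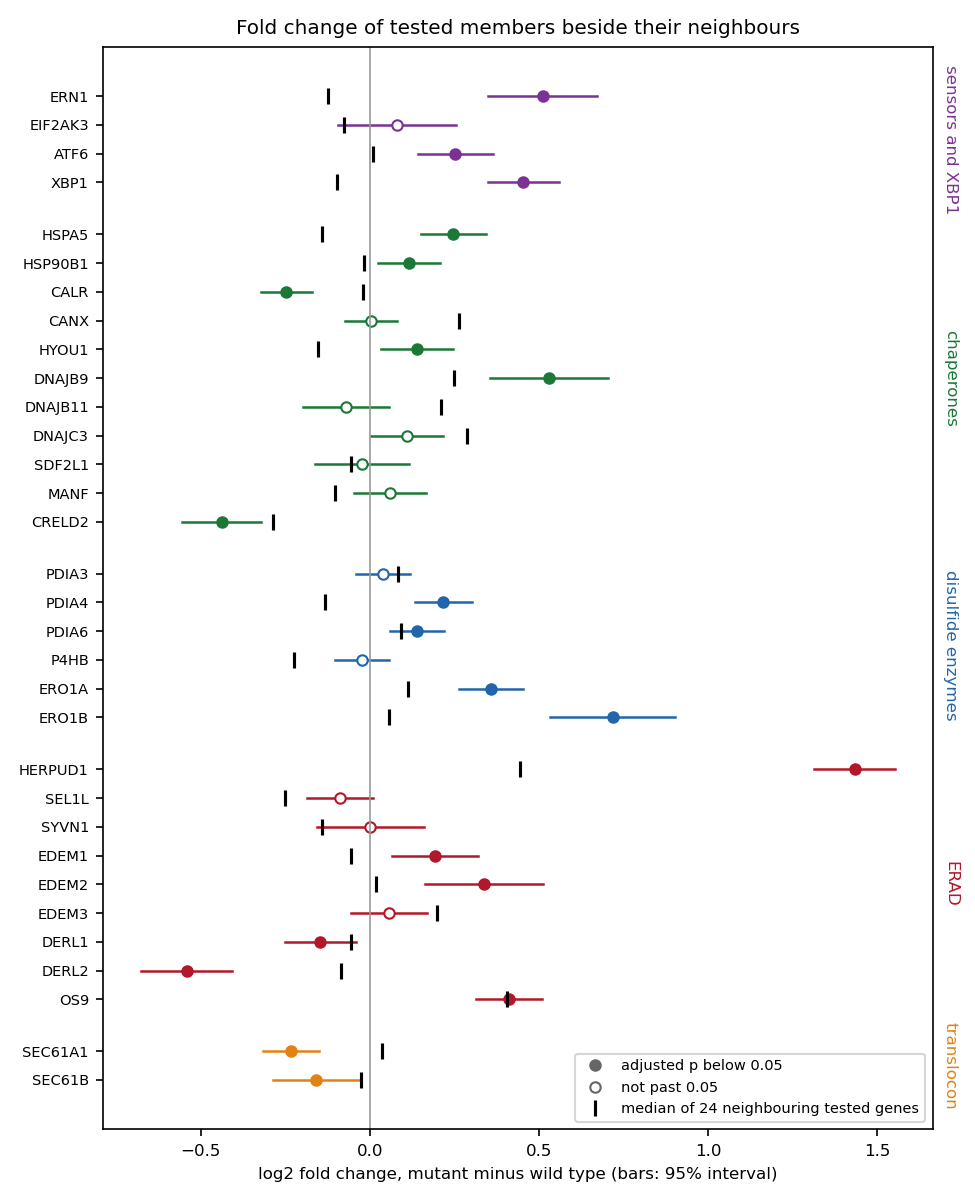
Log2 fold change of each tested member (mutant minus wild type, points) with its 95% interval (bars), and the median of its 24 neighbouring tested genes (black ticks). Filled points passed an adjusted p of 0.05. The tick coincides with the point for OS9 at 0.41, and HERPUD1, at 1.43, lies beyond its tick at 0.44.

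Other genes of the same pathway, listed by role, were called about as often in each direction as all tested genes. Of 101 tested genes in 5 lists, 32 were higher (31.7%, against 29.4% of all tested genes), 31 lower (30.7%, against 28.7%) and 38 not past the test, with a median of 0.01. Among 12 further signalling genes 5 rose and 5 fell (3 fell without mutant replicate 3). MBTPS1, the site-1 protease that cleaves ATF6, rose by 0.70 from 15.2 ± 0.538 to 25.3 ± 0.246 FPKM (SD, n = 3), on chromosome 16 among neighbours with a median of 0.37. CREB3L1, a membrane-bound factor related to ATF6, rose by 1.92 from 0.467 ± 0.0551 FPKM. The site-2 protease gene MBTPS2 (0.47) and the ATF6 relative ATF6B (0.45) also rose; these names were chosen after their values were seen. RTCB, the ligase that joins the spliced XBP1 message, fell by 0.36, on chromosome 22 among neighbours with a median of -0.26, and EIF2S1, the translation factor that PERK phosphorylates, fell by 0.31.

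Among 25 further folding factors 10 rose and 6 fell, with a median of 0.06. FKBP10 and FKBP9, prolyl isomerases of the ER, each rose by 0.60, FKBP10 from 44.7 ± 1.08 to 69.3 ± 1.5 FPKM (SD, n = 3). SERPINH1, the collagen chaperone, fell by 0.60, and CNPY2 by 0.32. Among 16 tested disulfide enzymes 5 rose (31.2%) and 1 fell (6.25%), against the same shares of all tested genes. Without wild-type replicate 1, 2 fell. PDIA5 rose by 0.52, the ER peroxidase gene GPX8 by 0.46, and the thioredoxin-related TMX2 fell by 0.33. Among 22 further genes of the translocon, signal peptide cleavage and glycan transfer 4 rose (18.2%, against 29.4%) and 8 fell (36.4%, against 28.7%). Their median was -0.02, and 5 fell without mutant replicate 1. SPCS3 of the signal peptidase rose by 0.28 and SSR1, which sits beside the translocon, by 0.22. TRAM1, another translocon-associated protein, fell by 0.34, and SRPRB, a subunit of the receptor for signal recognition particle, by 0.24.

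Of 26 further ERAD factors 8 rose (30.8%, against 29.4% of all tested genes) and 11 fell (42.3%, against 28.7%), with a median of -0.0038. Without mutant replicate 3, 4 rose. The ubiquitin ligase gene TMEM129 rose by 1.07, from 5.86 ± 0.196 to 12.6 ± 0.888 FPKM (SD, n = 3). UBXN8, which tethers the extraction machinery to the ER membrane, fell by 0.98 from 6.40 ± 0.709 to 3.31 ± 0.0755 FPKM (SD, n = 3). UFD1, a cofactor of the ATPase VCP that pulls ERAD substrates into the cytosol, fell by 0.73 from 14.3 ± 0.269 to 8.79 ± 0.270 FPKM (SD, n = 3), on chromosome 22 among neighbours with a median of -0.22. VCP itself (-0.38) and its other cofactor NPLOC4 (-0.23) also fell; these names were chosen after their values were seen.

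The PERK and ATF4 branch was measured in a list of 15 genes, of which 14 were tested. In that list 11 rose (78.6%, against 29.4% of all tested genes), 1 fell (7.14%, against 28.7%) and 2 did not pass. Its median was 0.78, beside -0.00070 over all tested genes and 0.10 for the ER folding and degradation genes. The list overlaps one already reported as higher in these libraries and is no independent evidence of its direction. MTHFD2 rose by 1.09 and SLC7A11 by 2.06, and PPP1R15A, which ends the PERK response, fell by 0.25, a call lost without wild-type replicate 1. ATF4 itself, on chromosome 22, stood at 375 ± 18.4 FPKM in the mutant and 221 ± 7.23 in the wild type (SD, n = 3; log2 fold change 0.73), and DDIT3, the CHOP gene, did not pass (-0.12, adjusted p = 0.538). ATF4 and DDIT3 are named after their values were seen. The difference between the 2 lists was not tested.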

How the data were processed

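Poly(A) RNA of 6 HEK293 libraries was sequenced. Reads went through cutadapt, HISAT2 (2.0.1) and HTSeq with GRCh38 according to the submitters' processing notes. The sources used here give no annotation release, strandedness or filter. The deposited file holds raw counts and FPKM for each gene and library, per the file headers. When FPKM was recomputed from the counts, exon lengths and library totals, 100% of values came within 0.011 of those deposited.

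Libraries were grouped by title. The test was the two-sided edgeR (4.0.16) quasi-likelihood F-test after TMM scaling, with genotype alone in the model, run on 12550 genes (mean FPKM 1 or more) and adjusted by Benjamini-Hochberg. The fit was tested on simulated data. Intervals of fold changes are 95% intervals on the total degrees of freedom of the fit, and cover the spread between libraries. No 2 libraries of a group were duplicates (chi-square per degree of freedom of at least 2.28).

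The members and lists were chosen with earlier results of these data known. All 33 members are accounted for. Values in every library are given for the 4 sensors, HSPA5, called members with an absolute log2 fold change of at least 0.5, and those that fell. Of other lists, the 2 called genes with the smallest adjusted p in each direction are named. A gene covered by this rule is not reported here. Promoter windows are from RefSeq. Alternatives were other scalings, limma 3.58.1, DESeq2 1.42.0, pseudocounts of 1 and 0.1, expression filters, a replicate block, single libraries left out, and chromosomes left out.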

Additional observations from a re-analysis of the deposited data

How the results depend on the processing

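Of the 21 called members, 14 kept their call in every one of the 17 alternatives with a test that held them. The others were ERN1, HSP90B1, HYOU1, PDIA6, EDEM1, DERL1 and SEC61B. No called member changed direction. The number of members higher was 12 to 17 and lower 4 to 6 over all alternatives. The median log2 fold change of the members, 0.10, was 0.13 with library totals as scaling, 0.14 after quantile normalization and 0.15 on TPM (chosen after seeing the data). It was 0.058 with no filter, and 0.0575 to 0.13 with single libraries left out. A change of scaling also moves other genes, so the larger medians do not show a larger rise relative to them. Genes called over the whole table numbered 4597 at a mean FPKM of at least 5, where fewer genes were tested, against 7284.

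The replicate numbers of mutant and wild type did not pair the libraries: deviations from the group means correlated at -0.00784, -0.0276 and -0.00153. With the replicate block 7069 genes were called, 14 members were higher and 5 lower, HSP90B1 (adjusted p = 0.0549) and SEC61B (0.0525) lost their calls, and 1 translocon subunit was lower.

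Counts in small classes moved by 1 or 2 genes, and the cause was not tested. Lower ERAD members numbered 1, in place of 2, with library totals, both limma pseudocounts, a mean FPKM of at least 5 and TPM. Lower translocon members numbered 1, in place of 2, in those settings and with quantile normalization and DESeq2. With single libraries left out, the lower ERAD and lower translocon members each numbered 1 to 2 and the higher chaperones 2 to 4. With no filter 2 chaperones were higher. Without chromosomes 10, 16, 20 and 22, which hold some of them, 1 chaperone was lower and 2 ERAD genes were higher.

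Of the other lists, higher disulfide enzymes numbered 5, and 8 with library totals, with quantile normalization and at a mean FPKM of at least 5. Lower disulfide enzymes numbered 3 with no filter and 1 to 2 with single libraries left out. Higher translocon and signal peptide genes numbered 4, but 7 with library totals, at a mean FPKM of at least 5 and on TPM, and 8 after quantile normalization. The lower ones numbered 8, but 3 after quantile normalization and on TPM, and 5 to 8 with single libraries left out. Lower folding factors numbered 3 at a mean FPKM of at least 5. Higher ERAD factors numbered 4 with no filter and 4 to 7 with single libraries left out. Lower signalling genes numbered 3 on TPM and 3 to 5 with single libraries left out. No ATF4 branch gene was lower (0, in place of 1, PPP1R15A) in limma at both pseudocounts and on TPM, and 0 to 1 were with single libraries left out. At 33 to 40 counts per library, DERL3 had a 95% interval of -0.53 to 0.49, so smaller differences were not detectable.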
